A study of Oryza sativa with 36 samples.

Results

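Alpha-amylases are the enzymes that cut starch inside its chains. Here 5 rice loci of this family were followed, among them RAmy3D and RAmy3E, which are known for repression by sugar. The members were chosen by locus: RAmy1A (transcript loc_os02g52710.1), RAmy3D (loc_os08g36910.1), RAmy3E (loc_os08g36900.1) and a pair of chromosome 9 genes without a name in the rule, loc_os09g28400.1 and loc_os09g28420.1. They are 5 transcripts beside the 33024 that appear in any of the count tables, and the rule that names them uses no measured value. RNA-Seq was run on roots and shoots of wild-type Nipponbare rice seedlings, 3 weeks old and grown hydroponically in a diluted Hoagland solution. The 12 conditions combine root or shoot, 5 µM zaxinone or mock, and 2, 6 or 24 h after application, with 3 libraries each and 36 in all. Zaxinone is an apocarotenoid, a cleavage product of carotenoids that regulates rice growth, and the mock plants received acetone as the control. All groups share genotype, age and growth medium, every sample title carries the mark +P, and each tissue is whole root or whole shoot. A single zaxinone concentration was used, and each time has its own mock plants. Time after application goes with clock time and plant age and cannot be told apart from them.

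In germinating cereal grain, alpha-amylases are secreted by the aleurone and the scutellum and turn endosperm starch into sugars for the embryo. The rice family falls into the subfamilies Amy1, Amy2 and Amy3: RAmy1A is a main gibberellin-induced enzyme of the grain, whereas RAmy3D and RAmy3E are known for rising in cultured cells deprived of sugar and for being repressed when sugar is supplied. The starvation signal runs through the kinase SnRK1A to the transcription factor MYBS1, which binds the TA box of such promoters. In vegetative tissue the family takes part in starch turnover and answers to sugar and hormone status. The study dealt with sugar content and sugar metabolism after zaxinone. The question put to these loci was whether their transcripts differed between zaxinone and mock plants, and in which tissue and at which time. Of RAmy3D and RAmy3E, only RAmy3D could be tested for this, and only in roots.

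The libraries held 11261992 to 36469854 counted reads, with a median of 25265203. Levels are given as CPM, reads scaled to library size with the TMM adjustment for library composition, and are compared within a gene but not between genes, because transcript length was not available here. The scaling was done within each table, so levels set side by side across tissues or times also depend on it, whereas the tests that join tables use a joint scaling. A count of 3 reads, set here as the limit of detection, corresponds to 0.0831 to 0.281 CPM depending on the library. The tissue labels were checked with loci chosen as markers: 5 shoot loci summed to 354 to 2308 CPM in the 18 root libraries and 38683.5 to 56741 CPM in the 18 shoot libraries, and 3 root loci summed to 1620 to 4297 CPM in roots and 9.71 to 19.4 CPM in shoots. The root zaxinone 24 h replicate 2 library stood apart, with a Pearson correlation across transcripts of 0.849 to 0.880 with the other libraries of its table, and was also the smallest.

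Of the 5 members, 2 were measurable. RAmy1A, the enzyme of the germinating grain, was listed in 2 of the 6 tables, root 6 h and root 24 h. In root mock plants at 6 h its 3 libraries held 1, 0 and 3 reads, and in root zaxinone plants at 6 h they held 0, 0 and 1. At 24 h a single read was found in root mock replicate 1 and another in root zaxinone replicate 3. The 7 reads in all never exceeded the limit of 3 reads in a library. RAmy1A was thus read, but too rarely at this depth to estimate a level, and no fold change was taken.

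RAmy3E, the starvation-responsive neighbour of RAmy3D, was nearly as low. It was listed in 5 tables, all but shoot 2 h, with 23 reads in all and a read in 11 of the 30 libraries of those tables. Its highest library held 4 reads, at 0.192 CPM. Roots gave 13 of its reads and shoots 10. The chromosome 9 gene os09g28400 was listed in 0 of the 6 tables, which hold only transcripts with at least 2 reads, so no level is given for it. These members did not pass the filter on low counts in any comparison, and zaxinone against mock could not be tested for them.

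RAmy3D was a low root transcript with a wide spread between libraries. It gave 916 reads over the 36 libraries, 808 of them in roots, and was read in 35 libraries. Root levels ran from 0.378 to 6.69 CPM with a median of 1.28, and shoot levels from 0 to 1.34 CPM with a median of 0.170. In the RefSeq annotation of rice, RAmy3D lies beside RAmy3E on chromosome 8 with 0 protein-coding genes between them. Of this adjacent pair, RAmy3D gave 916 reads and RAmy3E 23. How reads that fit several family members were counted, and whether strand was used, is not given in the sources used here.

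At 2 h the RAmy3D levels in root mock plants were 2.78, 4.46 and 0.592 CPM in replicates 1, 2 and 3. In root zaxinone plants at 2 h they were 0.951, 6.69 and 0.886 CPM. Each group thus had a library well above its lowest, replicate 2 in both, and the groups overlapped. The spread was much larger than counting error: the lowest mock library held 14 reads, with an exact Poisson 95% interval of 7.65 to 23.5, and the highest 120, with an interval of 99.5 to 143. Counting intervals cover counting error only, not the spread between plants.

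At 6 h RAmy3D was low in every root library. The mock libraries were at 0.716, 0.490 and 0.393 CPM and the zaxinone libraries at 0.581, 0.378 and 0.529 CPM. The groups overlapped, and the standard deviations of 0.166 and 0.105 CPM (n = 3 each) were far smaller than at 2 h. By 24 h mock roots were at 1.82, 3.32 and 2.06 CPM, and zaxinone roots at 1.61, 3.84 and 1.93 CPM. All 6 root libraries at 24 h therefore lay above all 6 at 6 h, also in a joint scaling, as did those of 7.45% of all transcripts. The mock and zaxinone groups at 24 h again overlapped.

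**Figure D1:**
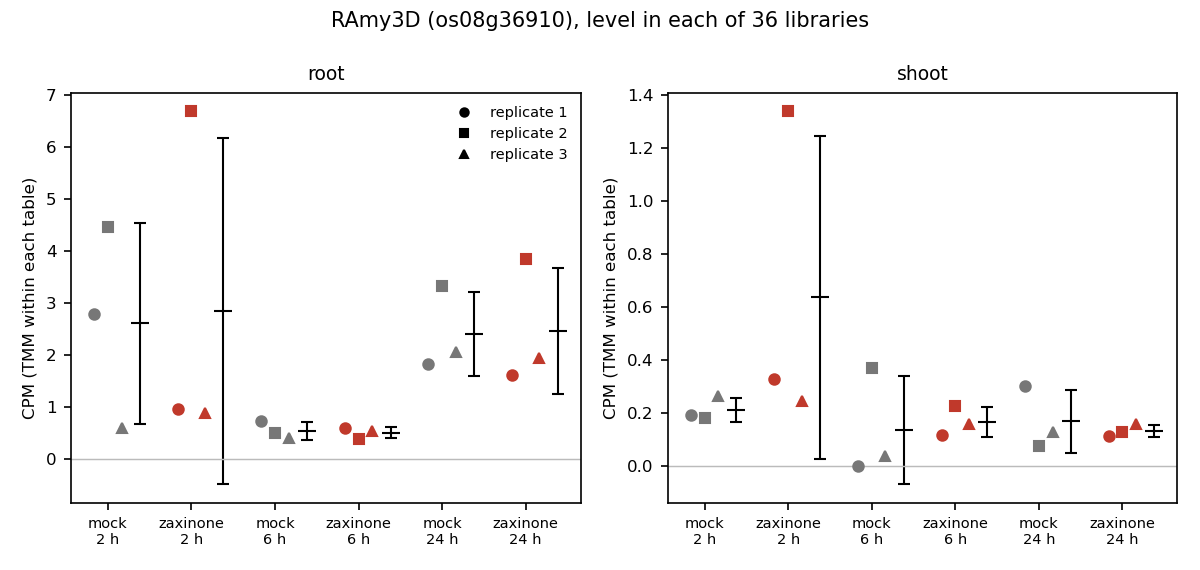
RAmy3D level in CPM (vertical axis, with a separate scale for root and shoot) in each library of the 12 conditions; symbols mark the replicate number, grey is mock, red is zaxinone, and the black bar is the mean with its SD (n = 3). Roots at 6 h sit between 0.378 and 0.716 CPM and roots at 24 h between 1.61 and 3.84 CPM, and replicate 2 is the highest library in the 4 root conditions at 2 and 24 h.

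In shoots RAmy3D was close to the limit of detection. Mock shoots at 2 h were at 0.194, 0.182 and 0.264 CPM, from 5, 5 and 7 reads. Zaxinone shoots at 2 h were at 0.328, 1.34 and 0.246 CPM, where replicate 2 with 34 reads stood above all other shoot libraries. At 6 h mock shoots held 0, 9 and 1 reads and zaxinone shoots 3, 3 and 4. At 24 h mock shoots held 7, 2 and 3 reads and zaxinone shoots 3, 3 and 4. With these counts RAmy3D failed the filter in all 3 shoot comparisons of zaxinone with mock, and only its roots could be tested.

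The replicate number of the highest RAmy3D library is given as a description only, and the same share over all transcripts was not taken. Replicate 2 was the highest library in 4 of the 6 root conditions, those at 2 and 24 h, and in 7 of all 12 conditions. The shoot part of that count rests on few reads. In zaxinone shoots at 6 h replicate 2 was highest with 3 reads, against 4 in replicate 3, because its library was smaller (13229890 against 25710540 reads). At 6 h the highest root library was replicate 1 in both groups. In os09g28420 replicate 2 was the highest in 2 of 12 conditions and in 0 of the 6 root conditions. The labels do not say that a number marks a shared batch, and the numbers did not enter the tests.

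The chromosome 9 gene os09g28420 was the steadier member. It was read in all 36 libraries, 1851 reads in all, of which 1446 were in roots. Its root levels ran from 1.85 to 4.52 CPM with a median of 3.06, and its shoot levels from 0.432 to 1.48 CPM with a median of 0.901. No shoot library reached any root library in the scaling within each table, and the same share over all transcripts was not taken. In a joint scaling of the 2 h libraries, zaxinone roots and zaxinone shoots overlapped. The coefficient of variation within a root condition had a median of 10.5% over the 6 conditions, against 41.4% for RAmy3D. The RefSeq table names the chromosome 9 alpha-amylase genes RAmy3A and RAmy3B, with 0 protein-coding genes between them, but pairs neither with the identifiers used here.

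In mock roots os09g28420 was at 2.55, 2.23 and 2.24 CPM at 2 h, and in zaxinone roots at 2.13, 1.85 and 2.88 CPM. These groups overlapped. At 6 h mock roots were at 4.13, 3.55 and 3.50 CPM and zaxinone roots at 3.08, 2.79 and 2.78 CPM, so every zaxinone library lay below every mock library. At 24 h mock roots were at 4.52, 3.03 and 4.23 CPM and zaxinone roots at 3.63, 3.09 and 3.90 CPM, which overlapped again.

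Shoots carried os09g28420 at 0.432 to 1.48 CPM. Mock shoots at 2 h were at 0.774, 0.875 and 1.17 CPM, and zaxinone shoots at 1.24, 0.630 and 1.48 CPM. At 6 h mock shoots were at 0.971, 1.40 and 0.926 CPM, and zaxinone shoots at 1.13, 1.14 and 1.35 CPM. At 24 h mock shoots were at 0.863, 0.581 and 0.432 CPM, and zaxinone shoots at 0.570, 0.701 and 0.513 CPM. The groups overlapped at each time.

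**Figure D2:**
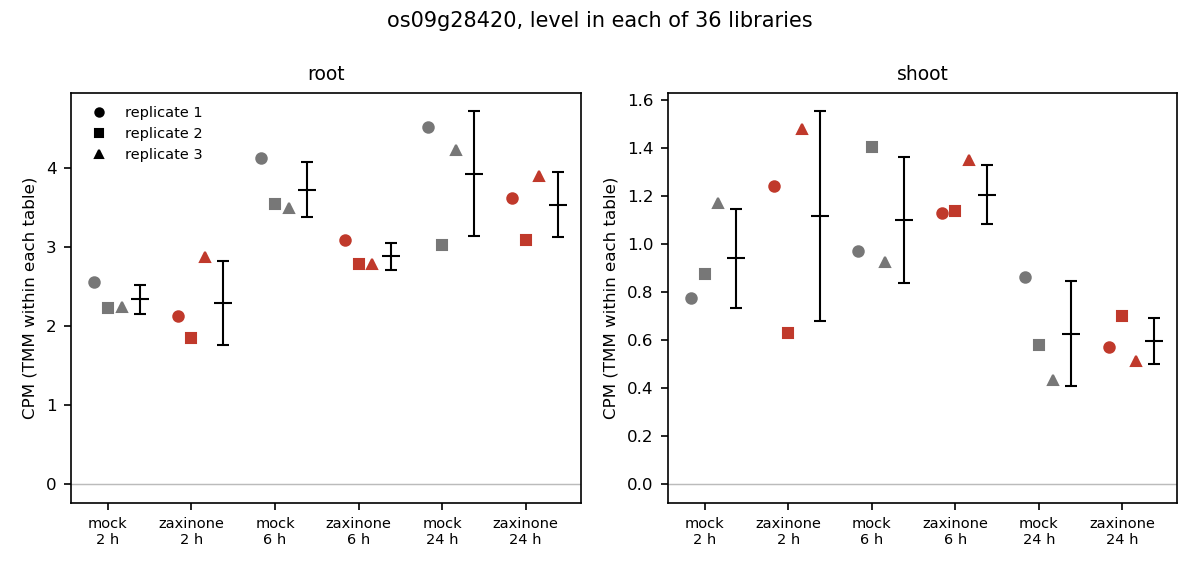
os09g28420 level in CPM (vertical axis, with a separate scale for root and shoot) in each library of the 12 conditions; symbols mark the replicate number, grey is mock, red is zaxinone, and the black bar is the mean with its SD (n = 3). Roots at 6 h show zaxinone libraries at 2.78 to 3.08 CPM below mock libraries at 3.50 to 4.13 CPM, and all shoot libraries lie at or below 1.48 CPM.

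Zaxinone changed neither measurable alpha-amylase past the threshold in any comparison. The tests of zaxinone against mock were 9, 3 for RAmy3D in roots and 6 for os09g28420 in both tissues. In the quasi-likelihood test of edgeR (Benjamini-Hochberg, over all transcripts), 0 reached an adjusted p under 0.05 and 0 had an unadjusted p under 0.05. DESeq2 also called 0, but it gave no adjusted p for RAmy3D in roots at 6 h or os09g28420 in shoots at 6 h. The share of all transcripts called by edgeR was itself small: in roots 0.636%, 1.61% and 0.00423% at the successive times, and in shoots 0%, 0.00433% and 0%. An unadjusted p under 0.05 was found for 7.65%, 16.7% and 8.46% of all transcripts in roots and for 4.04%, 11.8% and 3.95% in shoots. In bulk tissue a lower level from fewer cells of a type and from less RNA per cell cannot be told apart, and the same holds for higher levels.

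For RAmy3D, the member best known for sugar repression, the zaxinone effect in roots on the log2 scale was 0.09 ± 0.85 (SE) at 2 h, with a 95% interval of -1.81 to 1.98. As a fold this interval runs from 0.285 to 3.96, so changes within that range in either direction were not excluded at 2 h. At 6 h the log2 effect was -0.07 ± 0.38 (interval -0.93 to 0.78) and at 24 h it was 0.01 ± 0.45 (interval -1.03 to 1.05). The edgeR adjusted p was 0.997, 0.948 and 0.992 at 2, 6 and 24 h. Single libraries moved these values. Without root zaxinone replicate 2, the 2 h effect was -1.50, with an adjusted p of 0.766. At 24 h the effect was -0.41, with an adjusted p of 0.703, without root zaxinone replicate 2, the library that stood apart. The fold intervals, 0.526 to 1.72 at 6 h and 0.489 to 2.08 at 24 h, show what sizes the later times still allow.

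For os09g28420 the interval was narrowest in roots at 6 h, where the log2 effect was -0.37 ± 0.17 (SE), an estimate of 0.776-fold with an interval of 0.593 to 1.02. The 3 zaxinone libraries lay below the 3 mock libraries, as did those of 10.9% of all transcripts tested there, and the edgeR adjusted p was 0.329. The log2 effect in roots was -0.03 ± 0.31 at 2 h and -0.15 ± 0.30 at 24 h, with adjusted p of 0.997 and 0.820, and the 24 h value was -0.06 without the library that stood apart. In shoots it was 0.24 ± 0.34, 0.14 ± 0.30 and -0.08 ± 0.37 at 2, 6 and 24 h, with adjusted p of 0.996, 0.888 and over 0.999. All of these intervals included 0.

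**Figure D3:**
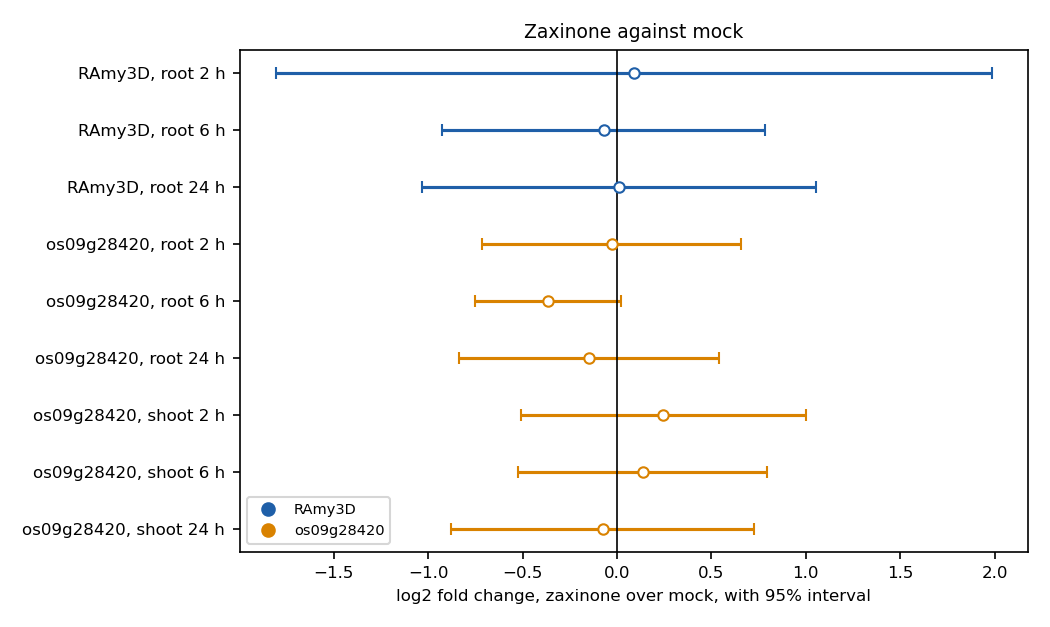
Log2 fold change of zaxinone over mock (horizontal axis) with its 95% interval for the 9 tests of RAmy3D (blue) and os09g28420 (orange); open circles are estimates with an adjusted p of 0.05 or more. All 9 intervals cross 0, the widest being RAmy3D in roots at 2 h, from -1.81 to 1.98.

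The zaxinone effect was also compared between tissues at each time and between times within a tissue. These 15 tests of an interaction gave 0 calls for RAmy3D and os09g28420, with a lowest adjusted p of 0.460 and a lowest unadjusted p of 0.0978. RAmy3D passed the filter on low counts in the tissue interactions only through its roots. Its fold intervals there were 0.0441 to 2.78, 0.185 to 3.82 and 0.388 to 3.97 at 2, 6 and 24 h. With so few shoot reads these tests cannot decide whether its zaxinone effect differed between tissues. The share of all transcripts called in the tissue interaction was 0.206%, 0.0545% and 0.0157% at 2, 6 and 24 h. In the root time interactions it was 0.00401%, 0.016% and 0.00801% for 6 h against 2 h, 24 h against 2 h and 24 h against 6 h, and in the shoot ones 0%.

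The only calls of the members in the main edgeR tests were between root and shoot. That difference was called, in either direction, for 69%, 71.2% and 57% of all transcripts at 2, 6 and 24 h. In mock plants os09g28420 was higher in root than in shoot at all times, 1.97-fold at 2 h, 2.75-fold at 6 h and 5.03-fold at 24 h. On the log2 scale these were 0.98 ± 0.33, 1.46 ± 0.21 and 2.33 ± 0.31 (SE), with edgeR adjusted p of 0.0176, 2.20e-05 and 3.23e-05 and no overlap between the 3 root and 3 shoot libraries at any time. The 2 h call was lost without shoot mock 2 h replicate 1 or replicate 2, with an adjusted p of up to 0.0615.

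RAmy3D was higher in mock root than in mock shoot at 2 h, by 3.27 ± 1.03 on the log2 scale (9.65-fold, interval 2.06 to 45.1; edgeR adjusted p 0.0123), and at 24 h by 3.48 ± 0.52 (11.1-fold, interval 5.12 to 24.2; adjusted p 8.37e-05). The libraries did not overlap at either time. RAmy3D passed the filter on low counts in these tests only through the roots, since mock shoots held 5, 5 and 7 reads at 2 h and 7, 2 and 3 at 24 h, and it was not tested with at least 10 counts in every library. At 6 h the log2 difference was 1.57 ± 0.68 with an adjusted p of 0.0527, and the lowest root library, 0.393 CPM, was close to the highest shoot library, 0.371 CPM. In the joint scaling of that test these groups overlapped. Without shoot mock 6 h replicate 2, the library with 9 reads, the mock shoots left held 0 and 1 reads. The difference at 6 h was then 4.04 with an edgeR adjusted p of 0.000679, but such counts cannot fix its size. RAmy3D entered the 6 h test too only through its roots.

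Differences between root and shoot were common in these libraries: 34.3%, 35.8% and 30.5% of all transcripts were called higher in root at 2, 6 and 24 h. Beside that share, os09g28420 was called at 2, 6 and 24 h. RAmy3D was called at 2 and 24 h, in tests that it entered only through its root counts. The tissues also differ in the marker loci given above. Non-overlap with root higher was found in 35.1%, 38.3% and 42.2% of all transcripts.

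In zaxinone plants the tissues were compared by level only, with no test. Non-overlap with root higher was found in 37.8%, 37.7% and 33.7% of all transcripts at 2, 6 and 24 h in a joint scaling. In os09g28420 the zaxinone roots lay above the zaxinone shoots at 6 and 24 h, but at 2 h, where roots were at 1.85 to 2.88 CPM and shoots at 0.630 to 1.48 CPM in their own tables, they overlapped in the joint scaling. In RAmy3D the zaxinone roots lay above the zaxinone shoots of the same time at 6 and 24 h, but at 2 h shoot replicate 2, at 1.34 CPM, was above root replicates 1 and 3.

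Over time in mock roots, neither member passed the threshold. RAmy3D was estimated at 0.193-fold at 6 h relative to 2 h (log2 -2.37 ± 0.76, edgeR adjusted p 0.0577) and at 4.66-fold at 24 h relative to 6 h (log2 2.22 ± 0.76, adjusted p 0.0683). The 2 h and 6 h libraries overlapped, since root mock 2 h replicate 3 was at 0.592 CPM, whereas all 24 h libraries lay above all 6 h libraries, as in 22.1% of all transcripts. At 24 h relative to 2 h the log2 difference was -0.15 ± 0.69 (adjusted p 0.927). These calls depended on single libraries and on the tool. Without root zaxinone 24 h replicate 2, the library that stood apart, both differences passed, with edgeR adjusted p of 0.0277 and 0.0403 and log2 values of -2.38 and 2.22. Both also passed without root mock 2 h replicate 3 or root zaxinone 2 h replicate 2, and 6 h against 2 h passed without root zaxinone 2 h replicate 1 or 3. DESeq2 gave adjusted p of 0.0115 for 6 h against 2 h and 0.0170 for 24 h against 6 h.

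In mock roots os09g28420 was estimated at 1.51-fold at 6 h (log2 0.59 ± 0.23, edgeR adjusted p 0.115) and at 1.65-fold at 24 h (log2 0.73 ± 0.23, adjusted p 0.0536), both relative to 2 h. The later libraries lay above all 2 h libraries in both, as in 19.3% and 15.9% of all transcripts. Between 6 and 24 h the log2 difference was 0.14 ± 0.23 (adjusted p 0.779). Without the library that stood apart, 6 h and 24 h both passed against 2 h, with edgeR adjusted p of 0.0489 and 0.0201 and log2 values of 0.59 and 0.72. The 24 h against 2 h difference also passed without root mock 24 h replicate 2 (adjusted p 0.0422) or root zaxinone 2 h replicate 3 (0.0480), and DESeq2 called it with an adjusted p of 0.0190. In these root time comparisons 10.3%, 10.2% and 12.6% of all transcripts were called for 6 h against 2 h, 24 h against 2 h and 24 h against 6 h.

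In mock shoots os09g28420 was estimated highest at 6 h and lowest at 24 h, with 0.629-fold at 24 h relative to 6 h (log2 -0.67 ± 0.34, edgeR adjusted p 0.122). The log2 difference was -0.52 ± 0.34 for 24 h against 2 h and 0.15 ± 0.32 for 6 h against 2 h, with adjusted p of 0.284 and 0.768. None passed the threshold, although 26.8%, 26.8% and 43.1% of all transcripts were called in the shoot comparisons of 6 h with 2 h, 24 h with 2 h and 24 h with 6 h. RAmy3D was too low in shoots to be tested over time.

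**Figure D4:**
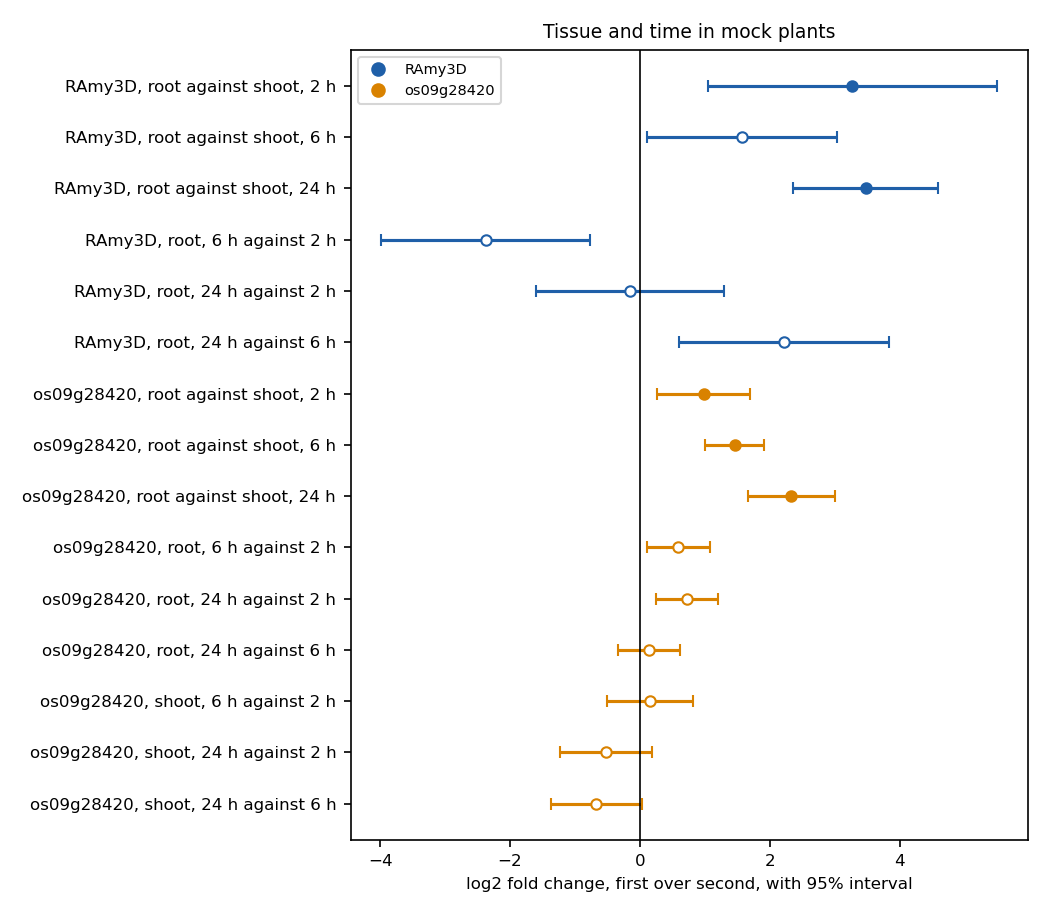
Log2 fold change between root and shoot and between times in mock plants (horizontal axis, the tissue or time named before "against" over the other) with its 95% interval for RAmy3D (blue) and os09g28420 (orange); filled circles passed an adjusted p of 0.05 and open circles did not. The 5 filled circles are all root against shoot, and RAmy3D in root is at -2.37 for 6 h against 2 h and at 2.22 for 24 h against 6 h.

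Ordered by mean over the 6 root conditions, RAmy3D ran from 0.496 CPM in zaxinone roots at 6 h to 2.84 CPM in zaxinone roots at 2 h. Both 6 h groups were lowest, at 0.533 ± 0.166 (SD, n = 3) in mock and 0.496 ± 0.105 in zaxinone, and the 4 groups at 2 and 24 h, at 2.40 to 2.84 CPM, did not differ beyond their spread. For os09g28420 the order ran from 2.29 ± 0.53 CPM in zaxinone roots at 2 h and 2.34 ± 0.18 in mock roots at 2 h, through 2.89 ± 0.17 in zaxinone roots at 6 h, to 3.54 ± 0.41, 3.73 ± 0.35 and 3.93 ± 0.79 in zaxinone roots at 24 h, mock roots at 6 h and mock roots at 24 h. The SDs of neighbours in this order overlapped at every step but those on either side of zaxinone roots at 6 h.

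Transcripts with a pattern most like that of a member were ranked by Pearson correlation of log2(CPM + 1) with transcripts averaging under 1 CPM left out. Over the 18 root libraries, RAmy3D was most like loc_os10g14170.1 (r = 0.948), loc_os10g13850.1 (0.928) and loc_os05g38120.1 (0.927). After the mean of each of the 6 conditions was taken off, the values were 0.932, 0.881 and 0.878. The transcripts were picked by their correlation over these same libraries, so these values are a description and not a check. For os09g28420 over all 36 libraries the leading transcripts were loc_os04g33860.1 (0.926), loc_os12g40380.1 (0.923) and loc_os05g43120.1 (0.922). Within conditions these fell to 0.246, 0.250 and 0.132, so the likeness lay between the conditions. Over the 18 root libraries the leading transcripts for os09g28420 were loc_os04g51080.1 (0.805), loc_os03g52620.1 (0.801) and loc_os03g25030.1 (0.800). Within conditions these were at 0.087, 0.465 and 0.202. The points share libraries and depth, the rank was taken over 22452 or 21417 candidates, and the files pair none of these identifiers with a product.

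Other loci of starch breakdown and sugar sensing were taken as lists from general knowledge of rice: 5 further alpha-amylase loci, 9 beta-amylase loci, which release maltose from chain ends, 10 loci for debranching and other starch degradation, and 7 for sugar starvation signalling. No source used here pairs these identifiers with products, so the lists are described only by counts and medians. Against zaxinone, 0 of the 25, 24 and 25 list transcripts tested in roots at 2, 6 and 24 h were called by edgeR, and 0 of 26 at each time in shoots. An unadjusted p under 0.05 (edgeR) was found for 0, 3 and 2 of them in roots, beside 7.65%, 16.7% and 8.46% of all transcripts. In shoots it was found for 1, 6 and 2 of them, beside 4.04%, 11.8% and 3.95% of all transcripts. The median log2 effect of the list transcripts was 0.01, 0.01 and -0.24 in roots and 0.07, 0.11 and -0.08 in shoots.

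Between tissues the lists are described by their calls, and no test compared the lists. Of the 9 starch degradation transcripts tested in mock plants, 8 were called lower in root than in shoot at each of 2, 6 and 24 h, with median log2 differences of -1.14, -1.69 and -1.68, where the medians of all transcripts were -0.0033, 0.00095 and 0.13. Of all transcripts, 34.6%, 35.5% and 26.5% were called lower in root and 34.3%, 35.8% and 30.5% higher. Of the 8 beta-amylase transcripts, 5, 3 and 5 were called lower in root and 1 higher at each time. Of the 2 further alpha-amylase transcripts tested, 1, 2 and 1 were called higher in root and 0 lower. Of the 7 sugar starvation signalling transcripts, 4, 4 and 3 were called higher in root and 2, 2 and 1 lower, with medians of 0.37, 0.65 and 0.32. In mock shoots at 24 h against 6 h, 6 of 8 beta-amylase transcripts were called higher, with a median of 1.24. Of all transcripts, 21.4% were called higher in that comparison and 21.6% lower. The other lists had 2 of 2 further alpha-amylase transcripts called higher (median 0.51), 4 of 7 of sugar starvation signalling higher and 1 lower (0.64), and 5 of 9 of starch degradation higher and 3 lower (0.42). The value of os09g28420 there was -0.67, which did not pass the test.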

How the data were processed

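RNA-Seq libraries of 3 samples in each of 12 conditions were analysed. The authors trimmed reads with Trimmomatic, aligned them with HISAT2 to the Oryza sativa v7.0 genome and counted them with HTSeq in the LSTrAP workflow, and deposited the raw counts of each transcript, not normalized, in a table per tissue and time. Tool versions and strand setting are not given in the sources used here. Each table was deposited in 2 formats, of which 1 was used, and the fold changes and p-values that the authors deposited from DESeq2 were not used. The study describes its replicates as independent biological replicates.

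Counts were tested in R 4.3.3 with edgeR 4.0.16 (TMM, filterByExpr, glmQLFit and glmQLFTest, Benjamini-Hochberg over all transcripts, adjusted p under 0.05). Zaxinone and mock were compared in the 6 libraries of a table, root and shoot in the 12 libraries of a time, and times in the 18 libraries of a tissue. Where a test joins tables, transcripts missing from a table entered with 0 counts. The edgeR step was tested on simulated data. Alternatives were DESeq2 1.42.0, its size factors in edgeR, no filter, at least 10 counts in every library, each library left out, a replicate block, a zaxinone fit over the 18 libraries of a tissue, and only transcripts listed in every table.

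The members and the lists of loci were chosen with earlier results of these data known. By rule, all 5 members are described, lists are given by counts and medians, and the 3 transcripts most like a member are named. Of the 33024 transcript identifiers, 0 matched the RefSeq gene table (assembly ASM3414082v1), which gave only names, chromosomes and neighbours. Promoter and protein sequences were not analysed here. Figures were drawn with matplotlib 3.10.9.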

Additional observations from a re-analysis of the deposited data

How the results depend on the processing

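In 9 zaxinone tests of the members, 0 calls arose under 11 to 13 settings each, with a lowest adjusted p of 0.303. The sign of RAmy3D in roots was not fixed: at 24 h it was -0.00063 with at least 10 counts in every library, -0.022 without a filter and -0.019 with the replicate block, against 0.01. Leaving out 1 library gave -0.41 to 0.31 for RAmy3D at 24 h, -1.50 to 0.70 at 2 h and -0.26 to 0.19 at 6 h in roots, -0.23 to 0.10 for os09g28420 in roots at 2 h, -0.27 to 0.22 in shoots at 24 h, and, for 6 h against 2 h in mock shoots, -0.072 to 0.34. For 24 h against 2 h in mock roots, RAmy3D ranged from -0.61 to 0.47. The number of members called between root and shoot at 2 h was 2, and 1 to 2 with a library left out; at 6 h it was 1, and 1 to 2; at 24 h it was 2 in each. With at least 10 counts in every library, only os09g28420 was tested and called in root against shoot at 2 and 24 h, 1 member in place of 2. For mock roots the number was 0 for each pair of times, and with a library left out 0 to 2 for 6 h against 2 h, 0 to 1 for 24 h against 2 h and 0 to 1 for 24 h against 6 h. DESeq2 called 1 member in each of these, and at least 10 counts in every library called 1 for 24 h against 2 h, os09g28420 with an adjusted p of 0.0397. Over all transcripts, edgeR and DESeq2 called 150 and 460 in roots at 2 h, 384 and 1152 at 6 h, 1 and 421 at 24 h, and 0 and 1, 1 and 145, and 0 and 3 in shoots.

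Replicate numbers were not treated as pairs. Deviations from the condition means correlated at -0.203 to 0.237 over 18 same-numbered pairs of mock and zaxinone, with 5 above 0.1. These values do not decide whether the numbers mark pairs. With the replicate block, 1 member in place of 0 was called for each pair of times in mock roots, RAmy3D for 6 h against 2 h (adjusted p 0.0392) and 24 h against 6 h (0.0303), and os09g28420 for 24 h against 2 h (0.0485). The block turned the sign of RAmy3D in roots at 2 h for zaxinone, to -0.12, with an SE of 0.47 in place of 0.85. It also turned the sign of RAmy3D for 24 h against 2 h in mock roots, to 0.034. The cause was not tested. With a pseudocount of 0.1, 2 of the 3 transcripts most like RAmy3D stayed among its leading 3, as did 2 of 3 for os09g28420 in roots and 0 of 3 over all libraries.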
